A study of Mus musculus with 3 samples.

Results

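Wnt proteins are secreted lipid-modified ligands that bind Frizzled receptors together with the co-receptors LRP5 and LRP6, which stabilizes β-catenin and switches on genes with TCF and LEF factors at their promoters, while some ligands act through other receptors without β-catenin. R-spondins strengthen the signal by binding LGR4 to LGR6 and removing the ubiquitin ligases ZNRF3 and RNF43 that clear Frizzled from the cell surface. SFRP proteins and WIF1 bind ligands outside the cell, and DKK1, DKK2 and DKK4 block LRP5 and LRP6. In skeletal muscle this pathway is known for acting on muscle stem cells (MuSCs) and on fibro-adipogenic progenitors (FAPs), the stromal cells that lay down matrix and give rise to adipocytes.

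The genes described here were all those with a symbol made of Wnt, Fzd, Sfrp, Dkk or Rspo and a number, with or without a letter a or b, plus *Lrp5*, *Lrp6*, *Wif1*, *Lgr4*, *Lgr5*, *Lgr6*, *Axin2*, *Lef1*, *Znrf3* and *Rnf43*. The rule used symbols only and chose 51 of 32285 genes. They comprise 19 ligands, 4 R-spondins, 3 R-spondin receptors, 10 Frizzled receptors, 2 co-receptors, 4 SFRP inhibitors, 5 DKK or WIF1 inhibitors and 4 feedback genes. At least 1 molecule was counted for 47 of them, and *Wnt3a*, *Wnt7a*, *Wnt8a* and *Dkk4* had none in any library.

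The study asked how diet-induced obesity and loss of *Thbs1*, which encodes the matricellular protein thrombospondin 1, change the cells of the mouse diaphragm. Mononuclear cells were released from costal diaphragm by collagenase digestion and captured for single-cell RNA-Seq. The WT CD library came from C57Bl/6J mice on control diet, the WT HFD library from C57Bl/6J mice on high-fat diet, and the KO HFD library from B6.129S2-Thbs1tm1Hyn/J mice, which lack *Thbs1* in the whole body, on high-fat diet. All were male mice kept on chow until 2 months of age and then on their diet for 6 months. Lipid supplied 45% of the calories in the HFD. Each library pooled 2 mice, and cells were not assigned to a mouse here. Each group is therefore 1 sample, no difference between groups has a replicate check, and no p-value is given. No KO library on control diet was analysed here.

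The WT CD library held 34312860 unique molecular identifiers (UMIs, each marking 1 captured mRNA molecule) in 4132 barcodes, the WT HFD library 31967976 in 3774, and the KO HFD library 36478779 in 4369. Median UMIs per barcode were 7632.5, 8041.5 and 7554, respectively. The WT CD library shared 7 barcode sequences with each of the other libraries, and WT HFD and KO HFD shared 2. *Thbs1* itself was counted at 136, 202 and 163 CPM in WT CD, WT HFD and KO HFD. Its mRNA was thus still counted in the KO HFD library, and since the chemistry reads the 3′ end, outside which the deletion may lie, this count does not check the genotype label.

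The level of a gene in a class or state is its CPM, a count of UMIs summed over the cells of that class or state in a library and scaled to a common total for all genes, with exact Poisson 95% intervals that cover counting error only. A molecule is counted once near its 3′ end whatever its length, so levels of different genes are compared per molecule and need no correction for length. Cells were grouped with all members left out of the clustering, and groups were named from marker genes. FAP-like cells (*Pdgfra*, *Pdgfrb*, *Dcn*, *Osr1*) numbered 2249 in WT CD, 1996 in WT HFD and 2414 in KO HFD, or 6659 of 12275 cells. *Dcn* reached 16430, 14259 and 15750 CPM in them, and summed mesothelial markers (*Msln*, *Lrrn4*, *Upk3b*) reached at most 0.809 CPM. FAP transcripts were also counted in other classes, and the part of free RNA, doublets and expression in these counts was not tested. *Dcn* in B cell-like, macrophage-like, endothelial-like and lymphatic-like cells stood at 3.04, 3.50, 7.14 and 7.70% of its FAP level, with 0.680% in MuSC-like and 62.9% in mesothelial-like cells. In the former 4 classes, levels of FAP-rich members at or under these shares are not read as expression.

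Promoter sequence from RefSeq (GRCm38.p6) was matched for 33 members. TCF and LEF factors recognize the letters CTTTGAA or CTTTGAT, which were searched on both strands of windows from 250 bases before to 50 bases after each start. They occur in a window of 3 of the 33 members (*Wnt11*, *Wnt5b* and *Dkk1*) and in 8.65% of 32851 windows of all genes. A match is a description only and not evidence of binding. The stretches upstream of the start are shown for *Wnt4* and *Dkk2*, which differed most between the HFD libraries, and for *Wnt11*, the most abundant member with a match, in capitals. They lie at chr4:137277385-137277488, chr3:132085042-132085291 and chr7:98834862-98835111, all on the plus strand, and the match in *Wnt11* starts 51 bases before the transcript.
Wnt4: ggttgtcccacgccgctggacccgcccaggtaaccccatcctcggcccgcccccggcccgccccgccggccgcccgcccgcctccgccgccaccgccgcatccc
Dkk2: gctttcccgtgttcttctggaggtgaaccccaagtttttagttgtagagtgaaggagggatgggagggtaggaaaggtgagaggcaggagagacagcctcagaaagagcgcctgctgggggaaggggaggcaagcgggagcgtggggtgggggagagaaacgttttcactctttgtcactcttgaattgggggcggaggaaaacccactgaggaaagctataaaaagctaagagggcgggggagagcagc
Wnt11: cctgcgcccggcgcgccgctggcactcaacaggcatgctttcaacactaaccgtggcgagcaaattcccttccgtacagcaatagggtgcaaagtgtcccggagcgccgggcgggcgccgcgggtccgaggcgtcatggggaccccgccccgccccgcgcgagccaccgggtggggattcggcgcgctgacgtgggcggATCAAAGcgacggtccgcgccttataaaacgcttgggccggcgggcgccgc
The *Wnt4* stretch is 83.7% G or C, that of *Dkk2* 55.6% and that of *Wnt11* 70.8%.

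Across cell classes, the mesothelial-like and FAP-like cells held most of the Wnt transcripts. Summed over the 3 libraries, ligands together reached 307 CPM in mesothelial-like cells (*Msln*, *Lrrn4*, *Upk3b*) and 211 CPM in FAP-like cells. They reached 22.3 CPM in endothelial-like and 17.6 CPM in MuSC-like cells. SFRP inhibitors together reached 497 CPM in FAP-like cells and 4.29 CPM in MuSC-like cells. Frizzled receptors were spread more evenly, with 283 CPM in mesothelial-like, 257 CPM in endothelial-like, 222 CPM in lymphatic-like, 198 CPM in FAP-like and 87.6 CPM in MuSC-like cells.

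How far the libraries shared a pattern was described with 9 classes of at least 20 cells in every library and 29 members of at least 50 UMIs in every library. The same class was highest in all 3 libraries for 20 of the 29 members, against 44.3% of 12433 genes counted the same way. This class was mesothelial-like for 9 members (*Wnt4*, *Wnt5b*, *Rspo1*, *Fzd1*, *Fzd2*, *Fzd3*, *Fzd7*, *Dkk3* and *Axin2*), against 8.05% of all genes, and FAP-like for 6 (*Wnt10b*, *Wnt11*, *Sfrp1*, *Sfrp4*, *Dkk2* and *Lrp6*), against 7.54%. It was lymphatic-like for *Wnt2*, *Rspo3* and *Fzd6*, and endothelial-like for *Fzd4* and *Lrp5*, and the shares of all genes for these classes were not counted.

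**Figure D1:**
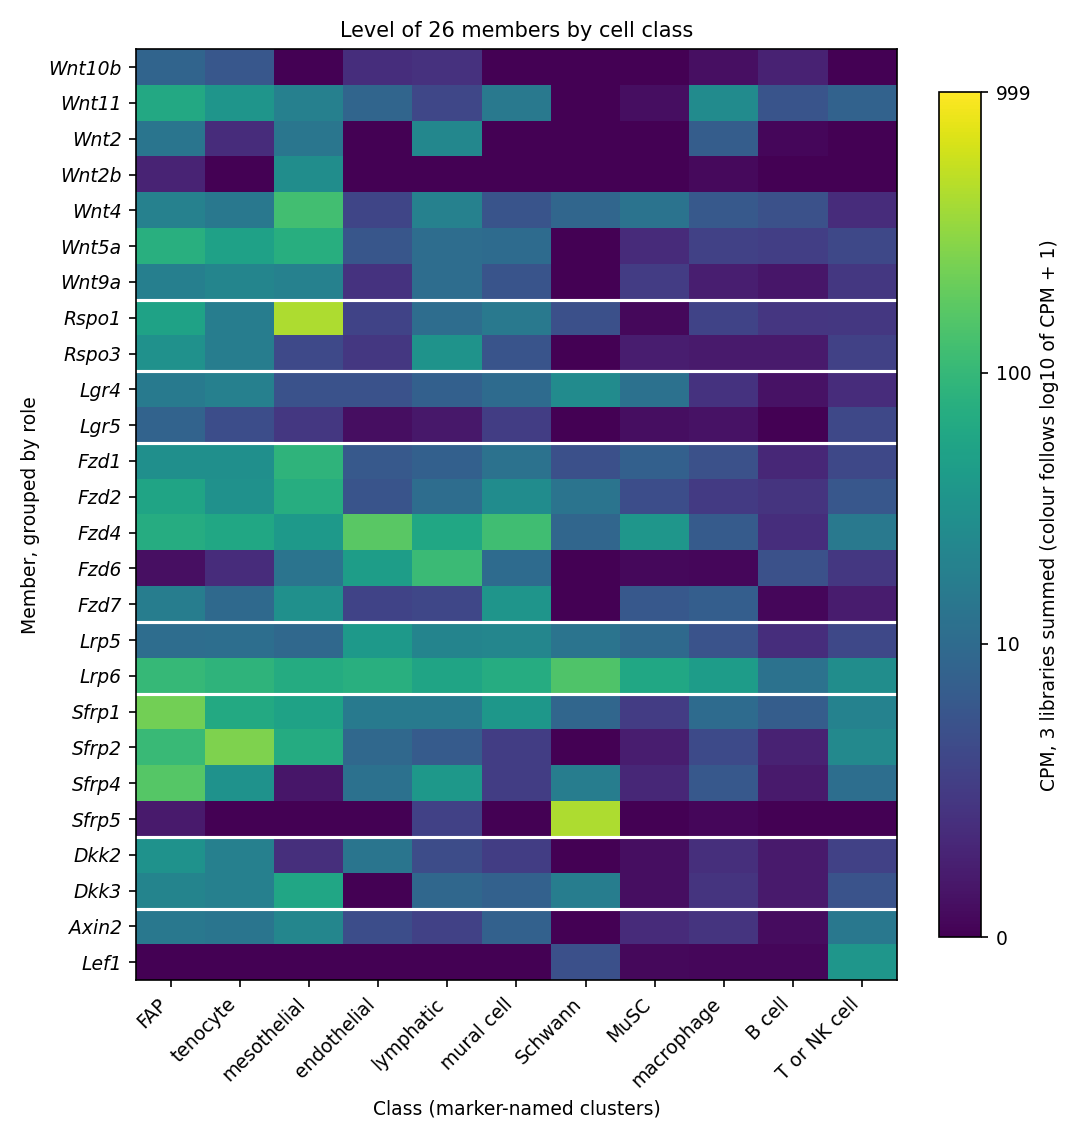
Each cell of the map is the CPM of 1 member (rows, grouped by role) in 1 cell class (columns), from UMIs of the 3 libraries summed, on a log colour scale. *Rspo1* in mesothelial-like cells (431 CPM) and *Sfrp5* in Schwann-like cells (427 CPM) are the brightest cells, and *Lef1* stands out in T or NK cell-like cells.

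Among the ligands, *Wnt5a*, which acts mainly without β-catenin, was the most abundant in FAP-like cells, at 77.2, 74.6 and 81.7 CPM in WT CD, WT HFD and KO HFD. In mesothelial-like cells *Wnt5a* stood at 36.7, 78.5 and 104 CPM, so that the WT CD library was the lowest there. *Wnt11*, another ligand known for signaling without β-catenin, was at 68.6, 59.9 and 60.9 CPM in FAP-like cells. The FAP values of these ligands lay close together in the 3 libraries.

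*Wnt4*, a ligand needed for kidney and gonad formation, was highest in mesothelial-like cells, at 136 (105 to 174), 113 (92.1 to 136) and 130 (101 to 164) CPM, with overlapping intervals. In FAP-like cells *Wnt4* was at 27.9, 11.1 and 20.4 CPM, and its difference between libraries is taken up below. *Wnt9a* was at 22.2, 18.3 and 15.5 CPM in FAP-like cells. *Wnt2* was at 16.4, 11.7 and 13.0 CPM in FAP-like and 22.9, 20.02 and 29.6 CPM in lymphatic-like cells. *Wnt2b* had its highest level in mesothelial-like cells, at 41.1, 21.2 and 31.6 CPM against 0.990 CPM in the FAP-like cells of the 3 libraries together. Of its 118 UMIs, 56 lay in the 175 mesothelial-like and 59 in the far more numerous FAP-like cells. *Wnt10b*, known to hold back fat cell formation, stood at only 10.2, 7.67 and 6.79 CPM in FAP-like cells, which nevertheless held 94.6% of its 516 UMIs.

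Other ligands were sparse. *Wnt6* had 306 UMIs in all, *Wnt5b* 276 and *Wnt10a* 81. B cell-like cells held *Wnt10a* at 11.6 (8.84 to 14.9) CPM in WT CD, 0.683 (0.0173 to 3.81) in WT HFD and 6.74 (2.47 to 14.7) in KO HFD, from 61, 1 and 6 UMIs. Nearly all of these UMIs (60, 1 and 5) lay in the cluster led by *Jchain* and *Igkc*, genes of antibody-secreting cells, which numbered 101, 7 and 11 of the 438, 163 and 104 cells. Within this cluster *Wnt10a* was at 26.2, 5.98 and 18.1 CPM, and the interval of the log2 ratio held 0 for WT HFD to WT CD and for KO HFD to WT HFD. *Wnt1* had 20 UMIs, *Wnt7b* 12, *Wnt16* 10, *Wnt9b* 5, and *Wnt3* and *Wnt8b* 1 each.

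The R-spondins were carried by *Rspo1* and *Rspo3*. *Rspo1* was the most abundant member in mesothelial-like cells, at 478 (417 to 545) CPM in WT CD, 391 (352 to 433) in WT HFD and 461 (405 to 522) in KO HFD. UMIs of it were found in 36 of 39, 75 of 86 and 47 of 50 mesothelial-like cells. In FAP-like cells *Rspo1* was at 58.1, 42.0 and 57.3 CPM. *Rspo3* was at similar levels in FAP-like cells (31.2, 27.3 and 37.5 CPM) and lymphatic-like cells (33.1, 29.4 and 40.6 CPM). *Rspo2* had 2 UMIs and *Rspo4* 1.

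Of the R-spondin receptors, *Lgr4* was at 14.0, 15.1 and 17.6 CPM in FAP-like and 14.7, 5.75 and 14.2 CPM in MuSC-like cells. *Lgr5*, best known as a marker of intestinal stem cells, had 503 UMIs, of which FAP-like cells held 94.8%. *Lgr6* had 2 UMIs.

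The Frizzled receptors differed in the classes that held them. *Fzd4*, the receptor for norrin in vessels, was highest in endothelial-like cells, at 183 (159 to 209), 173 (150 to 198) and 153 (130 to 179) CPM, with intervals that overlap, followed by mural cell-like cells (119 CPM over the libraries) and FAP-like cells (70.2 CPM). *Fzd6* was highest in lymphatic-like cells, at 117, 120 and 92.4 CPM, with 46.3 CPM in endothelial-like and 0.336 CPM in FAP-like cells. FAP-like cells held 4.43% of the 451 UMIs of *Fzd6*, although they were the most numerous class.

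*Fzd1* and *Fzd2* were shared by mesothelial-like cells (88.0 and 72.6 CPM over the libraries) and FAP-like cells, where *Fzd2* was at 56.8, 48.96 and 58.7 CPM and *Fzd1* at 30.2 CPM over the libraries. *Fzd7*, a receptor described on MuSCs, was at 36.7, 26.5 and 35.3 CPM in mesothelial-like cells and 4.72, 5.75 and 6.11 CPM in MuSC-like cells. In MuSC-like cells *Fzd4* was the most abundant Frizzled, at 37.2, 28.7 and 40.8 CPM. *Fzd8* had 1056 UMIs, *Fzd5* 833, *Fzd3* 276, *Fzd10* 23 and *Fzd9* 19.

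The co-receptor *Lrp6* was the broadest member, at 95.2, 102 and 106 CPM in FAP-like cells and between 12.4 CPM (B cell-like) and 147 CPM (Schwann-like) in the other 10 classes of the map. *Lrp5* was highest in endothelial-like cells, at 36.7, 38.3 and 46.0 CPM, against 10.2, 10.7 and 11.8 CPM in FAP-like cells.

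Among the secreted inhibitors, *Sfrp1* and *Sfrp4* were more abundant in FAP-like cells than any other member, in each library. *Sfrp1* was at 211 (204 to 217), 210 (204 to 217) and 261 (254 to 268) CPM, *Sfrp4* at 155, 171 and 159 CPM and *Sfrp2* at 109, 87.2 and 123 CPM. Tenocyte-like cells (*Scx*, *Tnmd*, *Thbs4*, *Fmod*; 22, 21 and 19 cells) held *Sfrp2* at 63.6 (37.1 to 102), 397 (317 to 491) and 360 (289 to 443) CPM, with WT CD apart from both HFD libraries. *Sfrp5*, a ligand-binding inhibitor described in fat tissue, had 166 UMIs, of which 96 lay in 57 Schwann-like cells (*Ncmap* and *Kcna1* among their markers). Its level there was 454 (313 to 638), 327 (202 to 500) and 477 (344 to 645) CPM, intervals that overlap. In FAP-like cells *Sfrp5* had 4, 4 and 31 UMIs, and 25 of the 31 in KO HFD came from a single cell.

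*Dkk3*, a divergent family member, was at 75.7, 55.2 and 48.3 CPM in mesothelial-like and 28.2, 17.6 and 18.6 CPM in FAP-like cells. *Dkk2* was at 36.1, 39.8 and 23.8 CPM in FAP-like cells, which held 94.5% of its 2075 UMIs. *Wif1* had 94 UMIs, 81 of them in 4 FAP-like cells of WT CD and 12 in 1 tenocyte-like cell of WT HFD, so no level of a class can be read from it. *Dkk1* had 8 UMIs.

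Among the feedback genes, *Axin2*, a widely used readout of β-catenin signaling, was at 17.8, 13.8 and 12.7 CPM in FAP-like and 32.4, 17.0 and 24.2 CPM in mesothelial-like cells. *Lef1*, a partner of β-catenin that also acts in lymphocyte development, had 59 UMIs, of which 53 lay in T or NK cell-like cells at 37.6 (23.2 to 57.4), 63.0 (39.0 to 96.2) and 20.6 (10.3 to 36.9) CPM. In the 6659 FAP-like cells *Lef1* had 1 UMI. *Znrf3* had 456 UMIs and was at 5.51, 5.27 and 5.04 CPM in FAP-like cells, and *Rnf43* had 23 UMIs.

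FAP-like cells were divided into 7 states by k-means, with the members and the genes that differ most between libraries left out. Of these, 5 states took a name from marker genes (*Fmod Tnmd*, *Dio2 Pthlh Col8a1*, *Gdf10 Rbp4 Penk*, *Cxcl14 Mme* and *Dpp4 Sema3c*), and the 2 that matched no marker set are called by leading genes (*Pgf Aldh1a2* and *Il6 Has1*). The states held between 780 and 1155 cells. The *Fmod Tnmd* state carried tendon genes (*Fmod* at 171 CPM and *Tnmd* at 189 CPM). It did not carry the tendon factor *Scx*, at 0.303 CPM against 188 CPM in tenocyte-like cells. Tendon genes were also counted in the *Dio2 Pthlh Col8a1* state, *Fmod* at 48.6 CPM, *Tnmd* at 97.4 CPM and *Scx* at 3.28 CPM from 26 UMIs.

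The SFRP inhibitors differed widely in level between the FAP states. *Sfrp2* was concentrated in the *Fmod Tnmd* state, at 525 (496 to 556), 538 (504 to 574) and 750 (717 to 784) CPM in WT CD, WT HFD and KO HFD, against 11.8 CPM in the *Cxcl14 Mme* state of WT CD and 2 and 3 UMIs in that of WT HFD and KO HFD. *Sfrp4* was highest in the *Dio2 Pthlh Col8a1* state, at 509 (485 to 535), 659 (627 to 691) and 830 (793 to 869) CPM, and at 4.55, 5.30 and 4.34 CPM in the *Cxcl14 Mme* state. *Sfrp1* was high in the *Fmod Tnmd* state (452, 517 and 636 CPM) and in the *Gdf10 Rbp4 Penk* state (404, 480 and 423 CPM), and low in the *Dpp4 Sema3c* state (31.3, 25.02 and 17.98 CPM). The order of the highest and lowest state was the same in each library for these 3 genes, apart from the lowest state of *Sfrp2*, which was *Pgf Aldh1a2* in WT CD. The highest state of *Sfrp4* depended on the cut, since with 5 k-means states it was not the same in the 3 libraries, and with Leiden clusters it was a cluster of 193 cells led by *Moxd1* that matched no marker set. Within the *Dio2 Pthlh Col8a1* state of KO HFD, 10 of 224 cells held 54.3% of the *Sfrp4* UMIs, and 1 cell held 332 of them. Within the *Fmod Tnmd* state, 10 cells held 24.5, 40.1 and 27.2% of the *Sfrp2* UMIs in WT CD, WT HFD and KO HFD. In WT HFD 1 cell held 142 of 920.

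**Figure D2:**
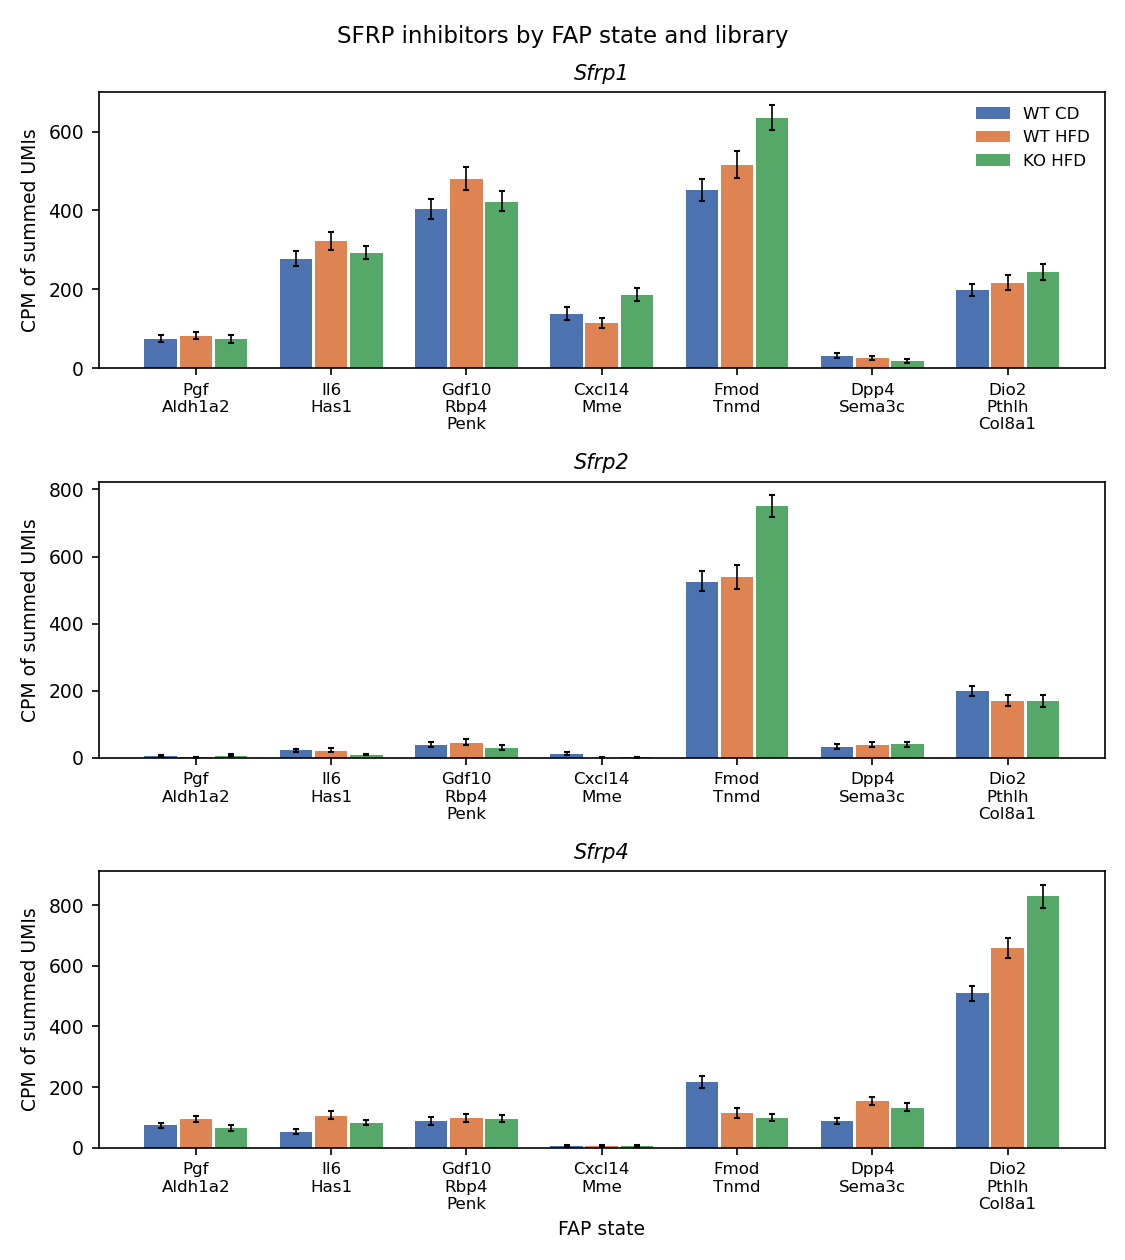
Bars are the CPM of *Sfrp1*, *Sfrp2* and *Sfrp4* in the 7 FAP states (x axis) for WT CD, WT HFD and KO HFD, with exact Poisson 95% intervals. *Sfrp2* is highest in *Fmod Tnmd* and *Sfrp4* in *Dio2 Pthlh Col8a1* in each library, while *Sfrp1* is shared by *Fmod Tnmd* and *Gdf10 Rbp4 Penk*.

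The same state was highest in all 3 libraries for 17 of 27 members with at least 50 UMIs in the FAP-like cells of every library, against 29.2% of 10739 genes. It was *Fmod Tnmd* for 11 members, against 8.33% of genes. These 11 covered receptors, a co-receptor, an R-spondin, inhibitors and feedback genes (*Fzd2*, *Fzd3*, *Fzd7*, *Lgr5*, *Lrp6*, *Rspo3*, *Sfrp1*, *Sfrp2*, *Dkk2*, *Axin2* and *Znrf3*). *Fzd2*, for example, was at 109, 131 and 132 CPM in this state against 31.5 CPM in the *Pgf Aldh1a2* state over the libraries. *Axin2* was at 37.0, 35.7 and 35.6 CPM there against 5.76 CPM in the *Cxcl14 Mme* state, and *Lrp6* at 155, 180 and 179 CPM. With Leiden clusters in place of k-means, 11 members had a shared highest state, against 17.6% of genes under this cut. Of these 11, 9 were among the 17, and 4 (*Axin2*, *Lgr5*, *Sfrp2* and *Znrf3*) had *Fmod Tnmd* as their highest state, against 2.92% of genes.

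No Wnt ligand was among the 11 members with *Fmod Tnmd* as the shared highest k-means state. *Wnt6*, which was highest there too, at 11.8, 7.599 and 14.7 CPM, was not counted because it had 48 UMIs in the FAP-like cells of WT HFD. *Wnt10b* was highest in the *Dpp4 Sema3c* state, which carries *Cd55*, *Fbn1* and *Mfap5*, at 48.6 (40.9 to 57.3), 31.2 (25.7 to 37.6) and 36.6 (30.1 to 44.1) CPM, against 4.50 CPM or less in the other 6 states over the libraries. UMIs of it were found in 100 of 256, 83 of 306 and 86 of 278 cells of this state. *Wnt2* was highest in the *Dio2 Pthlh Col8a1* state, at 47.6, 48.8 and 52.1 CPM, next to 38.2, 21.6 and 32.7 CPM in the *Dpp4 Sema3c* state and 0.131 CPM in the *Cxcl14 Mme* state over the libraries. For *Wnt2* too, the libraries shared no highest state with 5 k-means states, and the *Moxd1*-led cluster was highest with Leiden clusters. *Wnt11* was at 106, 74.2 and 90.8 CPM in the *Pgf Aldh1a2* state and 93.3, 84.3 and 90.9 CPM in the *Dpp4 Sema3c* state, with intervals that overlap in each library. *Wnt5a* ranged from 54.95 CPM in the *Cxcl14 Mme* state to 127 CPM in the *Fmod Tnmd* state over the libraries, although the latter was not its highest state in each library. *Rspo3* ranged from 7.68 CPM in the *Dio2 Pthlh Col8a1* state to 79.9 CPM in the *Fmod Tnmd* state, whereas *Rspo1* was at 91.7 and 77.1 CPM in these states.

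**Figure D3:**
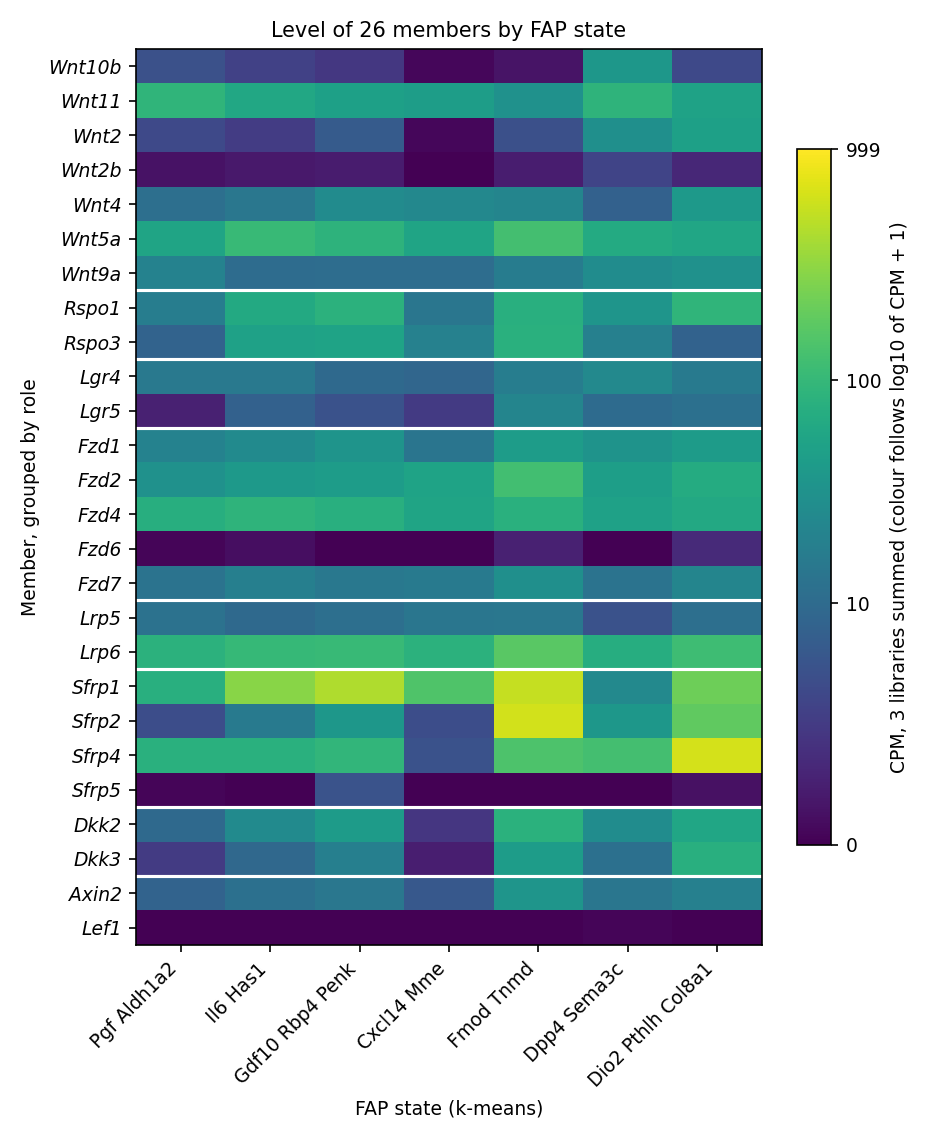
Each cell of the map is the CPM of 1 member (rows, grouped by role) in 1 FAP state (columns), from UMIs of the 3 libraries summed, on a log colour scale. The *Fmod Tnmd* column is bright for most receptors and inhibitors, and *Wnt10b* and *Wnt2* are nearly dark outside 1 and 2 states, respectively.

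The effect of diet was described by setting FAP-like cells of WT HFD against those of WT CD. Of 25 members with at least 200 UMIs over the pair, 3 differed by 1.5-fold or more, all lower in WT HFD (*Wnt4*, *Lgr5* and *Dkk3*). Of 9607 genes tested, 1.5% passed this fold, 0.645% higher and 0.854% lower. *Wnt4* was at 27.9 (25.6 to 30.3) CPM in WT CD and 11.1 (9.68 to 12.8) CPM in WT HFD, a log2 ratio of -1.32 (95% interval -1.56 to -1.09). *Lgr5* was at 12.2 and 6.66 CPM (-0.88, -1.20 to -0.56) and *Dkk3* at 28.2 and 17.6 CPM (-0.68, -0.88 to -0.48). The median log2 ratio of the 25 members was -0.18 and that of all genes tested 0.08. Of the members 17 were lower and 8 higher, a split that was not counted for all genes. With the FAP states weighted alike, *Dkk3* was at -0.45, under 1.5-fold, and *Wnt10b* passed it at -0.69. *Dkk3* also differed in direction among the states, with 7.58 CPM in WT CD and 15.2 CPM in WT HFD in the *Dpp4 Sema3c* state (interval of the log2 ratio 0.26 to 1.79).

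Members under 1.5-fold included *Rspo1* (-0.47, -0.60 to -0.33), *Wnt2* (-0.48, -0.74 to -0.23), *Axin2* (-0.37, -0.61 to -0.14) and *Sfrp2* (-0.32), with lower values in WT HFD, and *Fzd4* (0.37, 0.26 to 0.49), with a higher one. The interval of *Sfrp1* held 0 (-0.07 to 0.06). *Rspo1* differed in direction among the states, higher in WT HFD in 3 and lower in 4. Its interval lay above 0 in the *Pgf Aldh1a2* state (0.67, 0.10 to 1.26). It lay below 0 in the *Dio2 Pthlh Col8a1* (-0.77, -1.04 to -0.50) and *Gdf10 Rbp4 Penk* (-0.52, -0.82 to -0.21) states. With the states weighted alike the FAP-wide log2 ratio of *Rspo1* was -0.31. *Axin2* was likewise higher in WT HFD in 3 states and lower in 4, from -1.36 (-2.22 to -0.56) in *Pgf Aldh1a2* to 0.77 (-0.41 to 2.03) in *Cxcl14 Mme*. In *Fmod Tnmd*, its highest state, it was at -0.05 (-0.55 to 0.44). Over the alternative settings its FAP-wide ratio ranged from -0.44 to -0.14. *Wnt6*, with too few UMIs for the comparison, was at 4.65, 2.56 and 5.56 CPM in WT CD, WT HFD and KO HFD.

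The effect of genotype on HFD was described by setting KO HFD against WT HFD, a comparison that shares the WT HFD library with the diet comparison, so a value peculiar to that library enters both with opposite sign. Of 25 members, 2 passed 1.5-fold, *Wnt4* higher and *Dkk2* lower in KO HFD. Of 9705 genes tested, 1.03% passed, 0.69% higher and 0.34% lower. *Wnt4* was at 20.4 (18.5 to 22.4) CPM in KO HFD (log2 ratio 0.87, 0.63 to 1.12), between the WT libraries. *Dkk2* was at 23.8 (21.7 to 25.9) CPM in KO HFD against 39.8 (37.0 to 42.8) in WT HFD (-0.74, -0.91 to -0.58). It was at 36.1 (33.5 to 38.8) CPM in WT CD, so that KO HFD was the lowest library. The share of FAP-like cells with a *Dkk2* UMI differed less, at 11.5% (10.2 to 13.0) in WT HFD and 9.03% (7.92 to 10.2) in KO HFD. *Lgr5* was at 5.23 CPM and *Dkk3* at 18.6 CPM in KO HFD, nearer to their WT HFD than to their WT CD values. For *Lgr5* the FAP-wide log2 ratio of KO HFD to WT HFD was -0.35 (-0.73 to 0.03), an interval that held 0. *Lgr5* was lower in KO HFD than in WT HFD in 6 of 7 states, with an interval below 0 in *Il6 Has1* alone (-1.33, -2.33 to -0.35). Its FAP-wide log2 ratio ranged from -0.94 to -0.21 over the alternative settings. Without the FAP-like clusters led by tenocyte genes, described below, *Lgr5* had 106 UMIs over these libraries, under the minimum for a comparison.

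The median log2 ratio in this comparison was 0.08 for the members and -0.04 for all genes tested. Of the members 18 were higher and 7 lower, and here too the split was not counted for all genes. Among those under 1.5-fold, *Sfrp2* (0.49, 0.40 to 0.58), *Rspo3* (0.46, 0.30 to 0.62), *Rspo1* (0.45, 0.32 to 0.58) and *Sfrp1* (0.31, 0.25 to 0.37) were higher in KO HFD beyond counting error in sums over all FAP-like cells. Over the alternative settings the ratio ranged from 0.09 to 0.38 for *Sfrp1*, 0.19 to 0.50 for *Rspo3* and 0.19 to 0.54 for *Rspo1*. By state, *Sfrp1* was higher in KO HFD in 3 states and lower in 4. Its interval lay above 0 in the *Fmod Tnmd* (0.30, 0.18 to 0.42) and *Cxcl14 Mme* (0.71, 0.50 to 0.92) states. It lay below 0 in the *Gdf10 Rbp4 Penk* (-0.18, -0.31 to -0.06) and *Il6 Has1* (-0.14, -0.26 to -0.01) states. *Rspo3* was higher in 5 states and lower in 2, and each interval held 0. The *Il6 Has1* state made up 12.0% of FAP-like cells in WT HFD and 20.2% in KO HFD. For *Sfrp2* the FAP-wide ratio turned to -0.55 without the 2 FAP-like clusters led by tenocyte genes described below. The *Fmod Tnmd* state, in which *Sfrp2* was highest, made up 13.3, 10.6 and 13.9% of FAP-like cells in WT CD, WT HFD and KO HFD, and with the states weighted alike the log2 ratio of *Sfrp2* was -0.03 for WT HFD to WT CD and 0.30 for KO HFD to WT HFD. Within the *Fmod Tnmd* state the latter ratio was 0.48 (0.37 to 0.59). *Sfrp2* UMIs were found in 57.8% (50.8 to 64.6) of the cells of this state in WT HFD and 68.4% (63.1 to 73.3) in KO HFD, with overlapping intervals. Of the 7 states, *Sfrp2* was higher in KO HFD than in WT HFD in 4 and lower in 3. Its interval also lay above 0 in the *Pgf Aldh1a2* state (2.14, 0.76 to 3.75), from 19 UMIs in KO HFD and 6 in WT HFD. It lay below 0 in the *Gdf10 Rbp4 Penk* (-0.61, -1.06 to -0.17) and *Il6 Has1* (-1.19, -1.80 to -0.59) states.

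**Figure D4:**
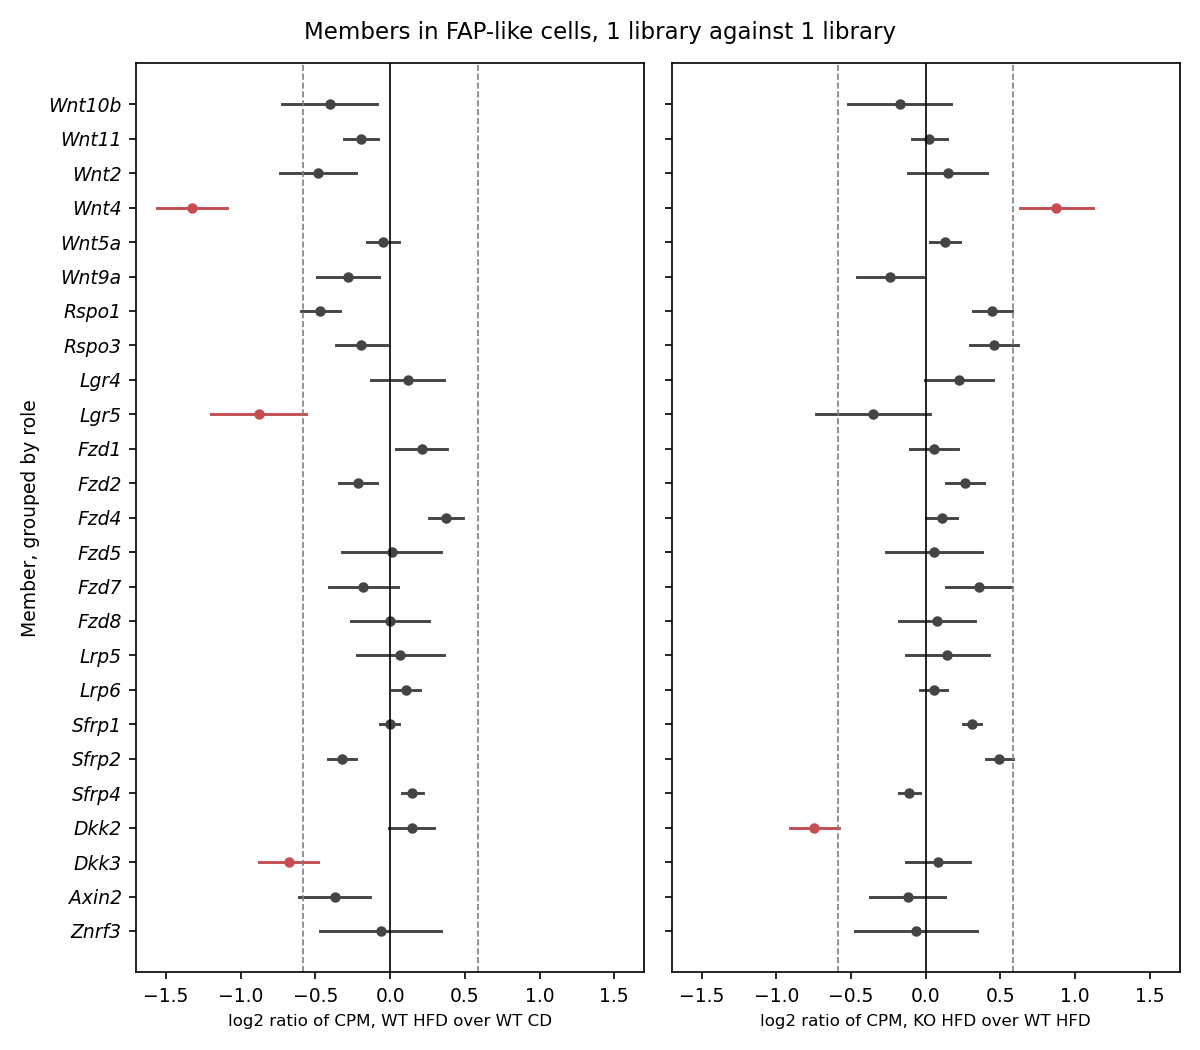
Points are log2 ratios of CPM in FAP-like cells for the 25 members (rows) with at least 200 UMIs, WT HFD over WT CD on the left and KO HFD over WT HFD on the right, and bars are exact 95% intervals for counting error. Dashed lines mark 1.5-fold, and red marks *Wnt4*, *Lgr5* and *Dkk3* on the left and *Wnt4* and *Dkk2* on the right.

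The *Wnt4* difference between WT HFD and WT CD lay mainly in 2 of the 7 states. In the *Dio2 Pthlh Col8a1* state it was at 79.0 (69.6 to 89.2) CPM in WT CD, 9.36 (5.93 to 14.0) in WT HFD and 21.6 (15.9 to 28.6) in KO HFD. In the *Gdf10 Rbp4 Penk* state it was at 38.7 (31.2 to 47.5), 8.23 (4.88 to 13.0) and 31.5 (25.1 to 39.1) CPM. WT HFD was the lowest library in both. In the other 5 states the log2 ratio of WT HFD to WT CD lay between -0.64 and -0.02, and every interval of these held 0. Between KO HFD and WT HFD *Wnt4* was higher in each of the 7 states, with log2 ratios from 0.34 to 1.94. The interval lay above 0 in the *Gdf10 Rbp4 Penk* (1.94), *Dpp4 Sema3c* (1.26, 0.41 to 2.16) and *Dio2 Pthlh Col8a1* (1.21) states and held 0 in the other 4. In the *Gdf10 Rbp4 Penk* state the KO HFD level rests on 82 UMIs in 36 cells, 18 of them in a single cell. The WT HFD level there rests on 18 UMIs in 14 cells.

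The share of cells with a *Wnt4* UMI followed the same order. In the *Dio2 Pthlh Col8a1* state it was 23.0% (exact binomial 95% interval 18.5 to 28.1) of 317 cells in WT CD, 5.02% (2.62 to 8.61) of 239 in WT HFD and 11.6% (7.72 to 16.5) of 224 in KO HFD. Median depths were 9370, 9775 and 9199.5 UMIs, and after thinning cells to 3000 UMIs each the share was 11.4, 1.79 and 4.85%. Leaving out this state moved the FAP-wide log2 ratio of WT HFD to WT CD from -1.32 to -0.64.

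The Leiden clusters, another cut of the same cells, placed the difference in the FAP-like cluster led by *Gdf10*, *Col6a5* and *Rbp4*. There *Wnt4* was at 91.9, 11.2 and 28.7 CPM, and in the other 6 FAP-like clusters the log2 ratio of WT HFD to WT CD lay between -0.57 and -0.10. Cells of this cluster that also fell in the *Dio2 Pthlh Col8a1* state numbered 84, 34 and 48. They held *Wnt4* at 213 (186 to 244), 28.8 (14.4 to 51.5) and 58.6 (38.9 to 84.7) CPM. The WT HFD level rests on 11 UMIs in 2 cells, 8 of them in 1 cell, and that of KO HFD on 28 UMIs in 12 cells. The 84 cells of WT CD carried 39.2% of all *Wnt4* UMIs of its FAP-like cells, in 48 cells. Without the *Gdf10*-led cluster *Wnt4* was at 15.5, 11.1 and 19.1 CPM, a log2 ratio of -0.48 for WT HFD to WT CD, which is under 1.5-fold, and of 0.78 for KO HFD to WT HFD. These cuts were chosen after the *Wnt4* values had been seen.

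*Dkk3* and *Dkk2* differed in the same cells. In the 84, 34 and 48 cells just named *Dkk3* was at 198, 89.0 and 92.1 CPM, lower in both HFD libraries, whereas *Dkk2* was at 28.6 (19.2 to 41.1), 186 (145 to 235) and 44.0 (27.2 to 67.2) CPM, highest in WT HFD. These *Dkk2* levels rest on 29 UMIs in 6 cells, 71 UMIs in 11 cells and 21 UMIs in 3 cells. In the *Gdf10 Rbp4 Penk* state *Dkk2* was at 36.2 (29.0 to 44.7), 80.0 (68.6 to 92.8) and 19.6 (14.6 to 25.8) CPM. There 10 of 292 cells of WT HFD held 55.4% of its 175 *Dkk2* UMIs. Between KO HFD and WT HFD *Dkk2* was lower in each of the 7 states, with log2 ratios from -2.03 to -0.29 and an interval that held 0 in the *Cxcl14 Mme* state alone, where each of these libraries had 3 UMIs. Without the *Gdf10*-led cluster the FAP-wide log2 ratio of *Dkk2* was -0.51 for KO HFD to WT HFD and that of *Dkk3* -0.26 for WT HFD to WT CD, both under 1.5-fold. *Lgr5* did not depend on this cluster (-0.98 without it).

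**Figure D5:**
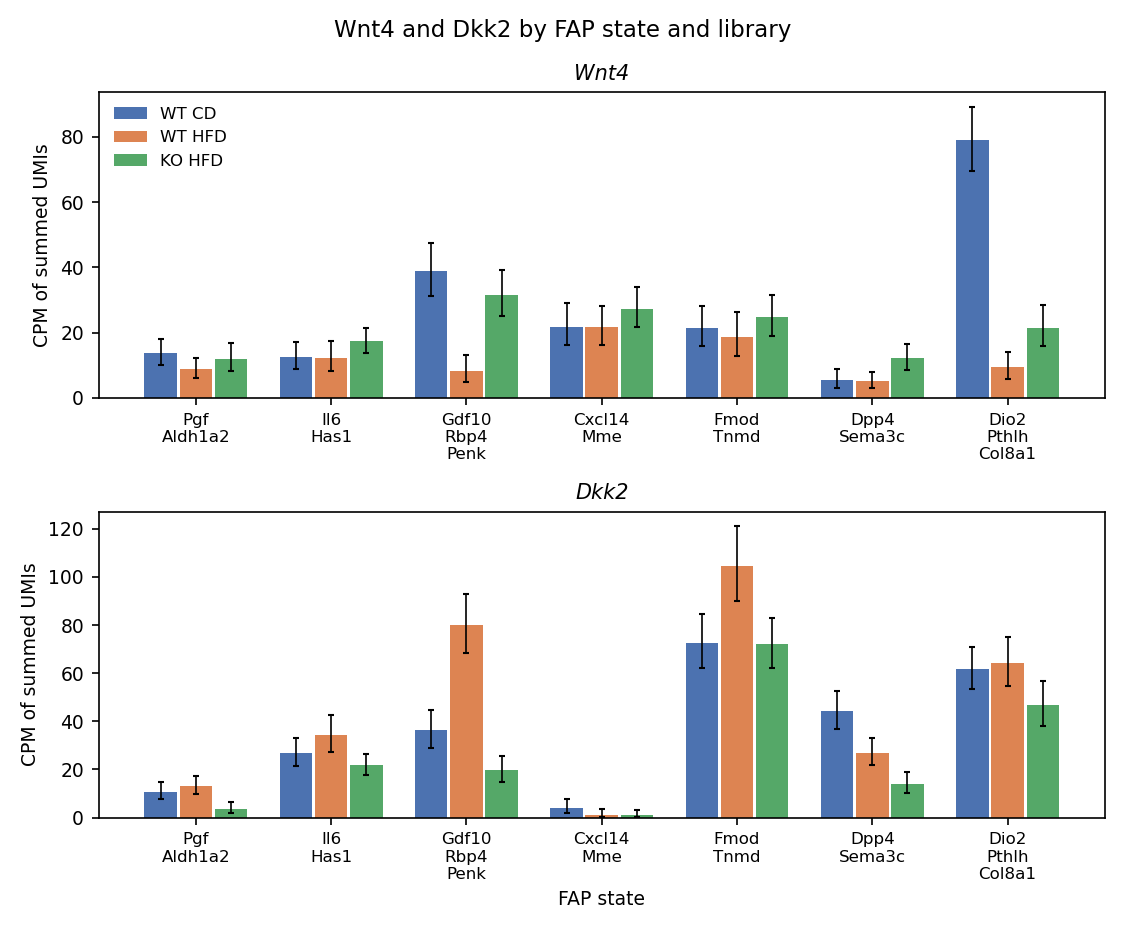
Bars are the CPM of *Wnt4* (top) and *Dkk2* (bottom) in the 7 FAP states for WT CD, WT HFD and KO HFD, with exact Poisson 95% intervals. *Wnt4* is at 79.0 CPM in WT CD and 9.36 CPM in WT HFD in *Dio2 Pthlh Col8a1* and at 38.7 and 8.23 CPM in *Gdf10 Rbp4 Penk*, and *Dkk2* peaks in the WT HFD library in *Gdf10 Rbp4 Penk* and *Fmod Tnmd*.

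A limit of these sums is that 2 of the 7 FAP-like clusters had tenocyte marker genes (*Thbs4*, *Tnmd*) among their leading genes. Without them 5 of 22 members passed 1.5-fold between WT HFD and WT CD, beside 2.1% of 8525 genes, *Wnt4* (-1.58), *Dkk3* (-0.90), *Sfrp2* (-0.72) and *Rspo1* (-0.63) lower and *Sfrp4* (0.70) higher. *Lgr5* was at -0.91 but had 195 UMIs, under the minimum of 200. Between KO HFD and WT HFD *Wnt4* and *Dkk2* passed without these clusters too, 2 of 23 members beside 1.18% of 8720 genes. Mice differ from each other, and with 2 mice pooled per library a difference between groups cannot be told apart from one between mice.

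Outside FAPs few members had the UMIs for a comparison. *Rspo1* in mesothelial-like cells gave log2 ratios of -0.29 (-0.54 to -0.04) for WT HFD to WT CD and 0.24 (0.00 to 0.48) for KO HFD to WT HFD. *Fzd4* in endothelial-like cells gave -0.08 and -0.18, with intervals that hold 0. In macrophage-like cells *Wnt11* was at 43.7 (37.1 to 51.1), 11.4 (8.63 to 14.8) and 30.3 (26.2 to 34.8) CPM, with WT HFD the lowest.

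The makeup of the macrophage-like cells moved with this value. The cluster led by *Mmp12*, *Retnla* and *Lyz1* numbered 185, 148 and 280 cells and held 153, 52 and 193 of the *Wnt11* UMIs, at 58.2, 24.3 and 45.0 CPM. The cluster led by *Folr2* numbered 99, 244 and 214 cells and held *Wnt11* at 2.69, 1.09 and 2.37 CPM. Within the *Mmp12*-led cluster the log2 ratio of WT HFD to WT CD was -1.26 (-1.74 to -0.80). This cluster also held the dendritic cell marker *Cd209a* at 144 CPM, with *Flt3* at 13.9 CPM, and the part of such cells in its *Wnt11* was not tested. *Lrp6*, at 34.4, 56.0 and 41.3 CPM in macrophage-like cells, was near 90 CPM in the *Folr2*-led cluster of each library (82.1, 100 and 92.0 CPM) and near 24 CPM in the *Mmp12*-led one (20.9, 26.2 and 24.9 CPM).

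The rest of the pathway was described with 7 lists of 60 genes, of which 43 had enough UMIs in FAP-like cells. None was higher by 1.5-fold and 1 was lower in each comparison, beside 0.854% of all genes tested that were lower in WT HFD than in WT CD and 0.34% lower in KO HFD than in WT HFD. *Nkd1*, a feedback inhibitor induced by β-catenin, was at 10.5 CPM in WT CD and 6.71 in WT HFD (log2 ratio -0.65, -0.98 to -0.32). *Ccnd1*, which encodes cyclin D1, was at 18.4 CPM in WT HFD and 9.98 in KO HFD (-0.88, -1.14 to -0.63). The median log2 ratio of the 43 genes was 0.07 for WT HFD to WT CD and -0.03 for KO HFD to WT HFD, beside 0.08 and -0.04 for all genes tested.

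The highest gene of each list in FAP-like cells over the libraries was *Wls*, the carrier that Wnt proteins need for secretion, at 133 CPM among 2 secretion genes, *Ryk* at 108 CPM among 4 other receptors, and *Kremen1*, a receptor for DKK proteins, at 25.2 CPM among 9 secreted or surface antagonists. *Daam1* stood at 52.0 CPM among 9 planar polarity genes, the kinase gene *Csnk1a1* at 208 CPM among 15 genes of the cytoplasmic relay, *Tcf7l2* at 123 CPM among 11 nuclear partners and *Myc* at 119 CPM among 10 targets. Of the antagonists 2 of 9 and of the planar polarity genes 5 of 9 had enough UMIs, against 15 of 15 in the cytoplasmic relay.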

How the data were processed

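Mononuclear cells of 3 diaphragm pools were profiled with the 10x 3′ v3.1 chemistry, and groups were taken from the sample labels. The authors counted UMIs with Cell Ranger on mm10 (GRCm38), version 6.1.1 in the submitters' processing notes and 6.1.0 in the matrix header, and deposited whole-number counts without normalization. Gene positions and promoters came from GENCODE release M21 and RefSeq. The members, lists and tests were chosen with earlier results of these data known.

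All 12275 barcodes were kept. Counts were scaled to 10000 per cell, and 2000 variable genes (111 pathway genes left out), 30 principal components, 15 neighbours and Leiden clustering at resolution 1 gave 27 clusters in 15 classes (scanpy 1.11.5, leidenalg 0.10.2, Python 3.11.15). A cluster took a marker set's name where at least 3 markers gave a mean log2 ratio of 1 or more, a set with every marker detected in 10% of cells coming first. These thresholds were set while clusters were examined, and 340 cells of 2 clusters stayed unnamed. An exception to the rule was 1 of these clusters (294 cells, led by *Gm26917* and *Lars2*). Its 3 mast cell markers gave a mean log2 ratio of 9.68, and no name was given. A further marker of the Schwann-like set is not reported here. FAP states came from k-means (k = 7, 50 starts, scikit-learn 1.9.0) on 10 components without 231 genes, 123 of which differed 1.5-fold between libraries. Scrublet called 52, 41 and 58 doublets, which were kept. UMIs were summed per class and library into CPM with exact Poisson, binomial and conditional 95% intervals (scipy 1.17.1). The depth, 31967976 to 36478779 UMIs a library, leaves wide intervals in small classes. A member was compared with at least 200 UMIs over 2 libraries, and past 1.5-fold it was counted. Of the members, 26 had at least 20 CPM and 50 UMIs in a class or state, and others that did not reach this are named too. Pathway genes were named past 1.5-fold or highest in their list. No test was run, with 1 library a group. Alternatives were cells gated one by one, doublets removed, cell filters, TMM (edgeR 4.0.16, R 4.3.3), other state cuts, folds and UMI minimums, and clusters left out. Scripts were tested on simulated data.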

Additional observations from a re-analysis of the deposited data

How the results depend on the processing

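No paired analysis was possible because each group is 1 library and the labels carry no replicate numbers. The number of members past 1.5-fold in FAP-like cells between WT HFD and WT CD was 3, and became 5 without the tenocyte-led clusters, 8 at the lower of the folds tried (10.7% of all genes) and 1, *Wnt4*, at a fold of 2 (0.343%). The number between KO HFD and WT HFD was 2, and became 7 at the lower fold (6.9% of all genes), 0 at a fold of 2 (0.196%) and 1, *Wnt4*, of 24 tested without the *Gdf10*-led cluster (0.957%), a setting chosen after the data were seen. Without that cluster the diet count was 2 of 24 (1.39% of all genes), *Lgr5* and *Wnt2*, so *Wnt4* and *Dkk3* left it. The members with the same highest FAP state numbered 17, and 11 with Leiden clusters at resolution 0.5, where *Sfrp1* was highest in the *Gdf10 Rbp4 Penk* cluster of WT CD and shared no highest state across libraries. Of 32 alternative settings of these counts and of the shared highest class (18 to 20 members), 25 stayed within 1.5 times. The log2 ratio of *Wnt4* ranged from -1.58 to -0.48 for diet and from 0.05 (KO HFD against both WT libraries combined) to 0.91 for genotype. Of 352 alternative values of single members, 305 stayed within the counting interval, 47 moved beyond it and 16 changed sign, none of them past 1.5-fold before. The causes were not tested. TMM factors were 0.976, 1.025 and 0.999. Depth limits members under 200 UMIs and small classes, such as mesothelial-like cells.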
